A study of Homo sapiens with 9 samples.

Results

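Sterol sensing was followed through 5 genes in LAN-5, a human neuroblastoma cell line given S100B, a protein that binds calcium and is released by astrocytes. The genes are INSIG1, SREBF1, SREBF2, MYLIP and ABCG4, each found by its symbol in the platform annotation and each represented by 1 probe set, so 5 of the 8746 probe sets other than controls and 5 of 7713 genes. They were chosen from earlier results of these arrays, INSIG1's lower value at 5 µM among them, so their values are given as a description and without p-values. RNA was hybridised to 9 Affymetrix arrays: 3 from untreated cells given culture medium alone, 3 from cells given 0.5 nM S100B and 3 from cells given 5 µM S100B, with no genetic change named in any group. All cells came from the same commercial line, were grown in DMEM and plated at 60000 cells per square cm, and how long S100B was present is not given in the sources used here. Per the submitters, replicates are biological.

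Cells hold cholesterol within limits through a pair of opposed transcriptional arms. When sterol is scarce, the membrane-bound SREBP proteins, made from SREBF1 and SREBF2, are carried out of the endoplasmic reticulum, cut, and turn on genes of lipid synthesis. When sterol is plentiful, INSIG1 holds the SREBP escort in the endoplasmic reticulum, and INSIG1 is itself an SREBP target. Oxysterols, which build up with sterol load, activate the nuclear receptors LXR, whose targets include SREBF1, the sterol exporters ABCA1, ABCG1 and ABCG4, and MYLIP (also called IDOL), a ubiquitin ligase that removes the LDL receptor.

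The stretch of 250 bases before the RefSeq gene start is shown for 3 of the genes, because each holds CCAAT, the box of a usual partner of SREBP, and 1 of them the SREBP motif searched: INSIG1 (chr7:155297628-155297877, plus strand), SREBF2 (chr22:41832855-41833104, plus strand) and MYLIP (chr6:16128836-16129085, plus strand), all on GRCh38.p14. Capitals mark a sterol regulatory element, searched as TCACNCCAC, and the CCAAT box bound by NF-Y, each on either strand.
INSIG1: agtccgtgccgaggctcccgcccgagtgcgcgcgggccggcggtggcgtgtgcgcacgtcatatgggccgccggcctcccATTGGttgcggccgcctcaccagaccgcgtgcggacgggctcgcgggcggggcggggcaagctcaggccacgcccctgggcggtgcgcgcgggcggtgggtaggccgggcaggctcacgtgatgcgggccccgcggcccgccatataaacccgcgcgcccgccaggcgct
SREBF2: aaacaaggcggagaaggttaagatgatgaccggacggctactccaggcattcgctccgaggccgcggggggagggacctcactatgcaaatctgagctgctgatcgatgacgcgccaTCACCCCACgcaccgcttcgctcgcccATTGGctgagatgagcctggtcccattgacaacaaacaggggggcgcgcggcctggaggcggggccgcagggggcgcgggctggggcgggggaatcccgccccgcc
MYLIP: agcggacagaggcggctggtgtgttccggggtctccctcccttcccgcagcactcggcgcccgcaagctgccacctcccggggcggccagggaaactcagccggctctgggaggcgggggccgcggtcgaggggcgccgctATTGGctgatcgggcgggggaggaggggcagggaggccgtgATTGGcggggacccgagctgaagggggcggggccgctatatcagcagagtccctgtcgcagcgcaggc
SREBF2 held the sterol regulatory element 133 bases before its start, a match found in 0.883% of 35116 RefSeq promoter windows of the same length. INSIG1, SREBF1, MYLIP and ABCG4 had no match to these letters in this window. CCAAT lay in the windows of INSIG1, SREBF2 and MYLIP, against 32% of all windows, and not in those of SREBF1 and ABCG4. GGGCGG, the GC box bound by Sp1, matched in all 5 genes, 5 times in INSIG1 and 3 times in MYLIP, against 42.6% of all windows. The DR4 element of LXR, a pair of AGGTCA half-sites with 4 bases between them, was present in 0.0142% of windows and the half-site alone in 12.1%, and neither matched in any of the 5. Matches of different motifs did not overlap in these genes, although 2 GC boxes of INSIG1 share a base, and a match is a description of letters only.

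INSIG1 had 8.567, 8.565 and 8.713 log2 in untreated cells, 8.757, 8.500 and 8.495 log2 at 0.5 nM, and 7.997, 8.109 and 7.827 log2 at 5 µM. All 3 arrays at 5 µM lay below the other 6, with a gap of 0.46 log2 to the lowest untreated array and 0.39 to the lowest at 0.5 nM. The mean was 7.98 ± 0.14 log2 at 5 µM and 8.61 ± 0.08 in untreated cells (SD, n = 3 each), a difference of -0.64 ± 0.09 (SE), or 64.3% of the untreated level on the linear scale. Against 0.5 nM the difference was -0.61 ± 0.09 (SE), and 0.5 nM against untreated it was -0.03 ± 0.09. Whether fewer cells made the transcript or each cell held less of it cannot be told apart in such bulk RNA.

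The genes of the SREBP proteins themselves differed less than INSIG1. SREBF1, which serves mainly fatty acid synthesis, had 7.07, 6.94 and 7.11 log2 in untreated cells, 7.01, 7.13 and 6.95 log2 at 0.5 nM, and 7.15, 7.10 and 7.34 log2 at 5 µM. The groups overlapped, since 1 array at 5 µM lay below 1 untreated array and below 1 at 0.5 nM. The difference was 0.16 ± 0.08 (SE) at 5 µM against untreated, and the SD of the 5 µM arrays was 0.12. SREBF2, which serves cholesterol synthesis, had 7.39, 7.44 and 7.54 log2 in untreated cells, 7.53, 7.47 and 7.47 log2 at 0.5 nM, and 7.43, 7.23 and 7.45 log2 at 5 µM. Replicate 2 at 5 µM stood lowest of all 9 arrays for SREBF2 while the other 2 lay among the untreated values, and the difference was -0.09 ± 0.07 (SE) at 5 µM against untreated. At 5 µM against 0.5 nM SREBF2 differed by -0.12 ± 0.07 with no overlap, but the gap between the groups was 0.02 log2.

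The LXR targets MYLIP and ABCG4 had small differences of opposite sign, in size near that of SREBF1. MYLIP had 6.75, 6.74 and 6.76 log2 in untreated cells, 6.71, 6.76 and 6.70 log2 at 0.5 nM, and 6.99, 6.82 and 6.97 log2 at 5 µM. All 3 arrays at 5 µM lay above the other 6, with a mean of 6.93 ± 0.09 log2 against 6.75 ± 0.01 in untreated cells (SD, n = 3 each) and a difference of 0.18 ± 0.06 (SE), 113% of untreated. ABCG4, a sterol exporter of neural cells, had 6.14, 6.14 and 6.09 log2 in untreated cells, 6.13, 6.10 and 6.12 log2 at 0.5 nM, and 6.03, 5.97 and 5.81 log2 at 5 µM. Here all 3 arrays at 5 µM lay below the other 6, and the difference was -0.19 ± 0.06 (SE), 87.7% of untreated. The mean of ABCG4 over all arrays lay just above the intensity filter, which left out probe sets at or below 5.95 log2, so its values are near the dim end of the arrays.

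**Figure D1:**
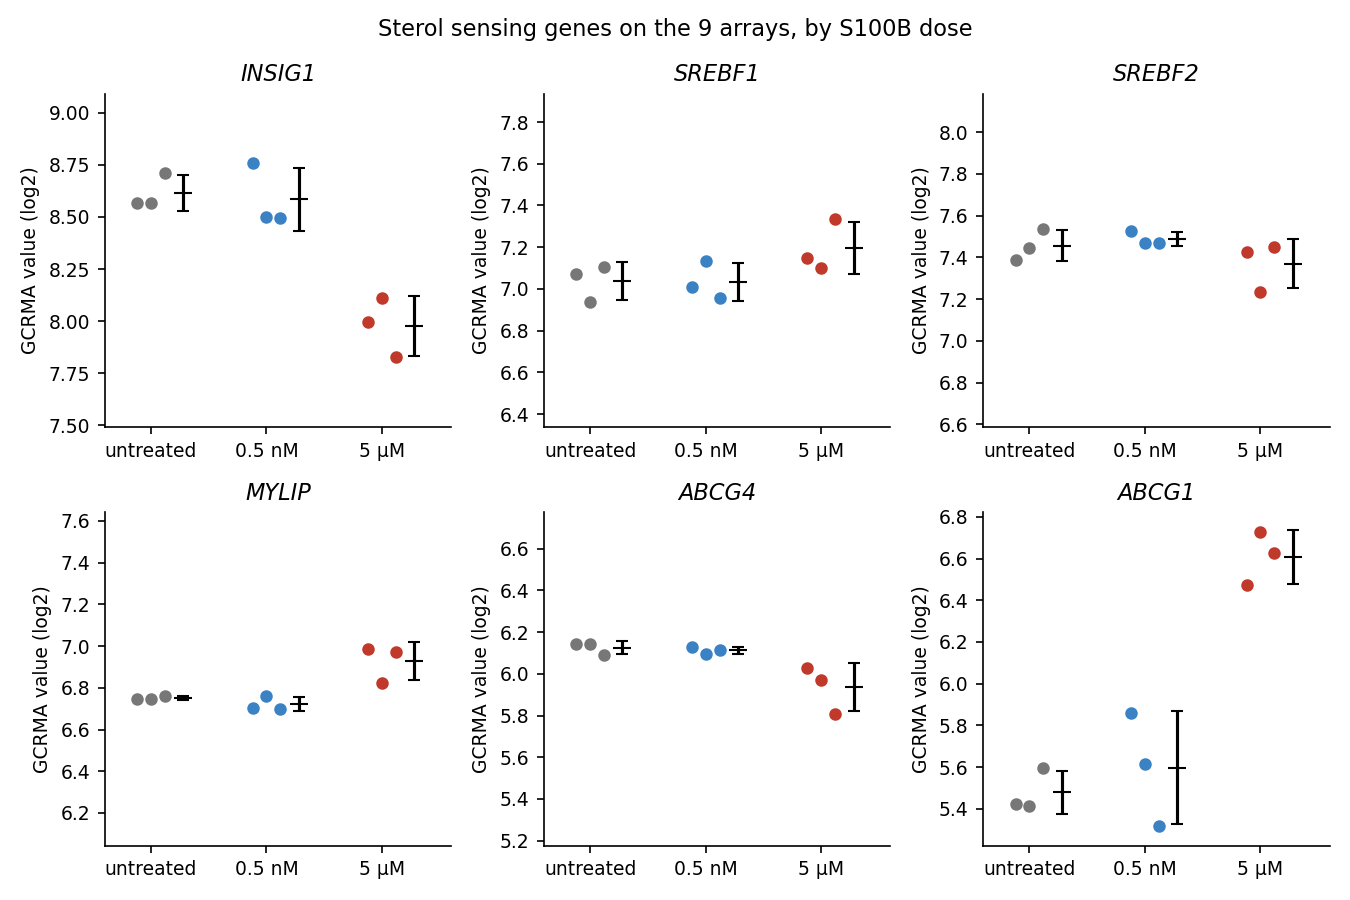
GCRMA values (log2) of the 5 genes and of ABCG1 on each array, by S100B dose, with the mean and SD of the 3 arrays beside them, all panels spanning the same range. The 3 arrays at 5 µM lay below the other 6 for INSIG1 and ABCG4 and above them for MYLIP and ABCG1.

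Limma was fitted to all 9 arrays over 5831 probe sets above the filter, and an adjusted p under 0.05 (Benjamini-Hochberg) was the threshold. Of the 5 genes, 1 passed at 5 µM against untreated and 1 at 5 µM against 0.5 nM, INSIG1 in both, against 0.292% and 0.257% of all probe sets. At 0.5 nM against untreated 0 of 5 and 0% of all probe sets passed, 0 also with an unmoderated test, while 192 fell under 0.05 before adjustment. Groups were fully separated for 3 of the 5 at 5 µM against untreated (12.3% of all probe sets), in 4 at 5 µM against 0.5 nM (6.98%) and in 0 at 0.5 nM against untreated (6.98%). These counts describe genes chosen with the same contrasts known, and the comparisons at 5 µM share the 5 µM arrays. INSIG1 passed at 5 µM against untreated in 4 of 9 fits that left out 1 array and lost the call without untreated replicate 1, 2 or 3 or 5 µM replicate 1 or 3, with a difference of -0.70 to -0.56. Against 0.5 nM it lost the call without untreated replicate 2 or any 1 array of the 0.5 nM or 5 µM groups, with a difference of -0.67 to -0.52.

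INSIG1 ranked 8th from the lowest of 5831 differences at 5 µM against untreated, while MYLIP ranked 87th from the highest and ABCG4 214th from the lowest. SREBF1 ranked 138th from the highest and SREBF2 1285th from the lowest. At 0.5 nM against untreated the 5 genes differed by -0.03 to 0.03, below the median standard error of 0.07 over all probe sets.

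INSIG1 went against MYLIP and SREBF1 and with ABCG4 over the arrays. Pearson's r over the 9 arrays, a description of points that share the 3 groups, was -0.91 for INSIG1 with MYLIP (Spearman's rho -0.64), -0.72 with SREBF1 (rho -0.55), 0.88 with ABCG4 (rho 0.72) and 0.50 with SREBF2 (rho 0.50). Without the 2 arrays farthest from the INSIG1 median these were -0.73, -0.23, 0.81 and 0.92. Within groups, after each group's mean was taken out, r was -0.51 with MYLIP, -0.38 with SREBF1, 0.46 with ABCG4 and -0.12 with SREBF2. Among the 6 arrays from untreated and 0.5 nM cells, r was -0.09 with MYLIP, 0.114 with SREBF1, -0.06 with ABCG4 and 0.665 with SREBF2. There the opposition to MYLIP and SREBF1 was not seen, nor the likeness to ABCG4. SREBF1 and MYLIP, both LXR targets, had r = 0.79 over all arrays and 0.59 within groups, while SREBF1 and ABCG4 had -0.86 and -0.74. SREBF1 and SREBF2 had r = -0.09 over all arrays. Among the 3 arrays at 5 µM, replicate 3 had the lowest INSIG1 and ABCG4 and the highest SREBF1. Arrays numbered 3 were alike across groups in their deviations from group means (r of 0.298 to 0.329). Pairs of arrays with different numbers ran from -0.367 to 0.348. Whether the likeness of the arrays numbered 3 bears on these values was not tested.

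**Figure D2:**
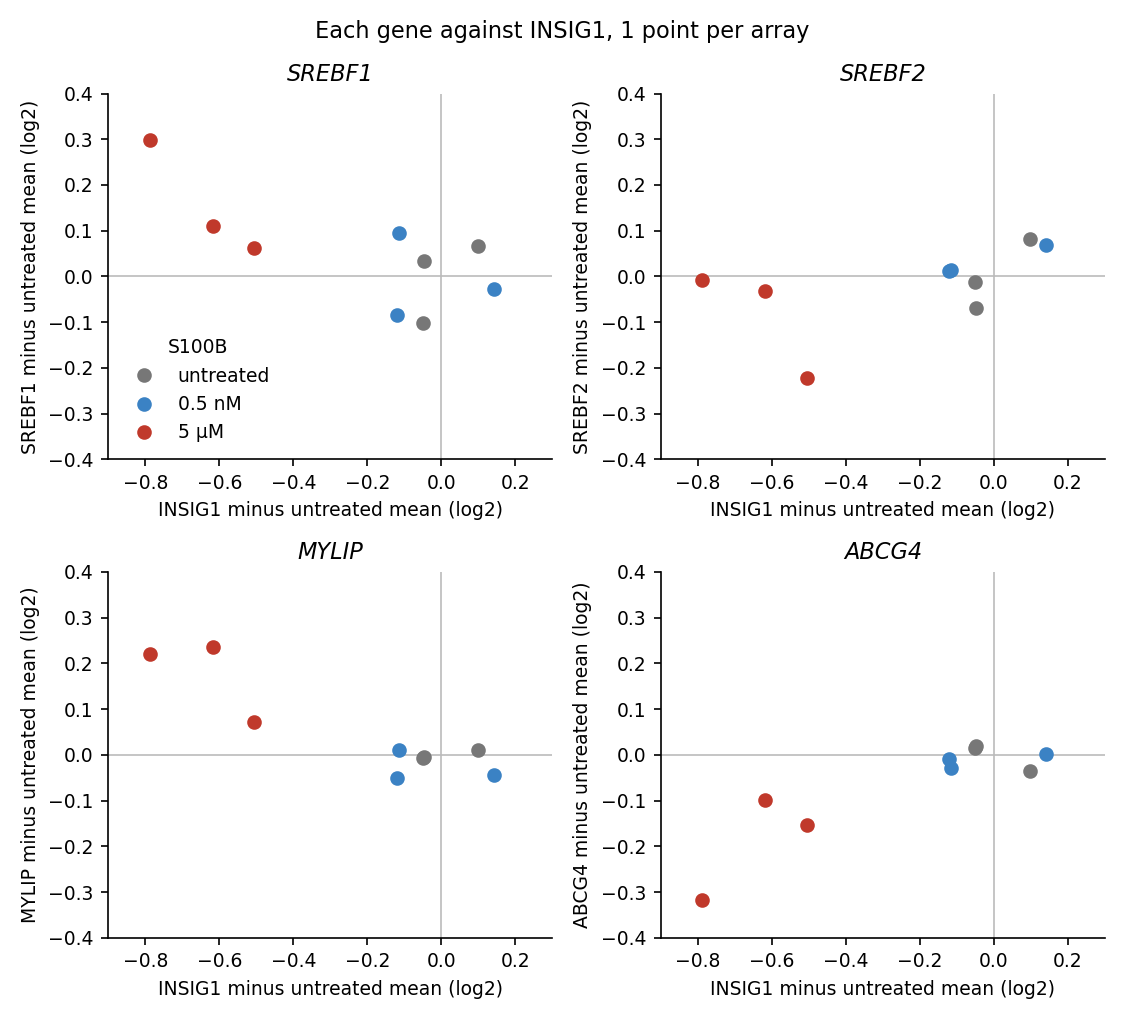
SREBF1, SREBF2, MYLIP and ABCG4 (vertical) against INSIG1 (horizontal), 1 point per array, each as the log2 value minus the gene's untreated mean. The 3 arrays at 5 µM lie 0.51 to 0.79 below the untreated INSIG1 mean, above 0 for SREBF1 and MYLIP and below 0 for SREBF2 and ABCG4.

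The genes whose values over the 9 arrays were most like those of INSIG1, among 5226 other probe sets with 1 symbol, were MSMO1 (r = 0.98), HMGCS1 (0.98), IDI1 (0.97), ERG28 (0.97) and the muscarinic receptor CHRM3 (0.94). MSMO1, HMGCS1 and IDI1 are enzymes of cholesterol synthesis, and ERG28 is known in yeast as a scaffold of sterol enzymes. Within groups their r with INSIG1 was 0.85, 0.78, 0.70, 0.76 and 0.60. The lowest r were those of RBL2, a pocket protein of the cell cycle (-0.97), MYLIP (-0.91) and TFPT (-0.90). MYLIP was most like RBL2 (0.91), the peptide gene ADM (0.89) and RPL31 (0.87). SREBF1 was most like SLC10A2, ADM and PRKCA (0.92, 0.91 and 0.88), SREBF2 most like DNAI1, AQP8 and INE1 (0.99, 0.94 and 0.93), and ABCG4 most like PSMB2, IDI1 and INHBA (0.95, 0.94 and 0.93). ABCG4 thus had 1 cholesterol enzyme, IDI1, among its 3 closest, and IDI1 was among the 5 closest to INSIG1.

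Downstream of SREBP-2, genes of cholesterol synthesis fell at 5 µM. Of 18 SREBP-2 target genes above the filter, 16 were lower and 2 higher at 5 µM against untreated. The median difference was -0.43 against -0.02 over all probe sets. Past the threshold were 9, all of them lower, against 0.292% of all probe sets. HMGCS1, the synthase before mevalonate, had 7.76, 7.80 and 7.73 log2 at 5 µM, against 8.82, 8.74 and 9.17 in untreated cells, with limma's adjusted p = 0.00217. MSMO1, which removes methyl groups from sterols, had 9.19, 9.16 and 9.05 log2 at 5 µM, against 9.92, 10.04 and 10.10 in untreated cells, a difference of -0.89 ± 0.09 (SE). The last step enzyme DHCR7 differed by -0.66, the epoxidase SQLE by -0.66, HSD17B7 by -0.65, the cyclase LSS by -0.57, IDI1 by -0.56, FDPS by -0.51 and SC5D by -0.46, all past the threshold. Of those not called, PMVK at 0.05 and NPC1 at 0.0011 were not lower. The median of the 18 genes on single arrays was -0.47 to -0.38 from the untreated mean at 5 µM, -0.07 to 0.04 at 0.5 nM and -0.06 to 0.02 in untreated cells. At 5 µM against 0.5 nM all 18 were lower, with a median of -0.37. Past the threshold were 9, now with MVD and without SC5D, against 0.257% of all probe sets. The count past the threshold at 5 µM against untreated was 3 without untreated replicate 1 or 3 and 4 without 5 µM replicate 1 or 2. At 5 µM against 0.5 nM it was 3, 3 and 2 without 0.5 nM replicates 1, 2 and 3, and 5 and 3 without 5 µM replicates 1 and 2. For HSD17B7 and IDI1 the probe set's suffix warns of probes shared with other transcripts.

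Of the 9 genes called lower at 5 µM against untreated, 8 had a RefSeq promoter window, and SQLE was not searched. A gene was counted where any of its starts had a match within 250 bases before it. So counted, all 8 held CCAAT, as INSIG1 did, against 37% of 27305 genes, and all 8 held GGGCGG, against 46.2%. TCACNCCAC was in 0 of 8, against 1.09% of genes. Only this exact form was searched, and with so low a share 0 of 8 cannot show that these genes lack SREBP sites. Over the 17 measured SREBP-2 targets with a window the counts were 14, 15 and 0. No test was made of these shares.

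The fatty acid genes that follow SREBP-1 were lower without passing. Of 7 above the filter 0 passed at 5 µM against untreated, all 7 had a negative difference and the median was -0.32. FADS2, a desaturase, differed by -0.40 ± 0.11 (SE, limma's adjusted p = 0.389) and ACLY, which makes cytosolic acetyl-CoA, by -0.32 ± 0.10 (adjusted p = 0.465). SREBF1 itself was 0.16 higher, opposite in sign to these 7 genes. At 5 µM against 0.5 nM 0 of 7 passed and the median was -0.27. FASN shows the spread behind these values, at 8.73, 9.07 and 9.54 log2 at 5 µM against 9.36, 9.33 and 10.12 in untreated cells.

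On the LXR side, ABCG1 rose at 5 µM. ABCG1, which passes cholesterol to lipoprotein particles, had 5.42, 5.42 and 5.60 log2 in untreated cells, 5.86, 5.61 and 5.32 log2 at 0.5 nM, and 6.47, 6.73 and 6.62 log2 at 5 µM. Every array at 5 µM lay above the other 6, by 0.88 log2 over the highest untreated array and 0.61 over the highest at 0.5 nM. Its mean over all arrays, 5.90, lay just under the filter, so it was tested in a fit of all 8746 probe sets, which called 0.183% of them at 5 µM against untreated and 0.16% at 5 µM against 0.5 nM. There ABCG1 differed by 1.13 ± 0.12 (SE), 218.9% of untreated, with limma's adjusted p = 0.00801, and against 0.5 nM by 1.01 ± 0.12 (adjusted p = 0.0174). It was the 1 probe set called higher in each of these comparisons without the filter (0.0114% of probe sets), and with the filter 1 other was called higher at 5 µM against 0.5 nM. The adjusted p against untreated was 0.0787 and 0.0603 without untreated replicates 1 and 2 and 0.0531 without 5 µM replicate 2, with a difference of 1.07 to 1.20 over the fits that left out 1 array. Against 0.5 nM it was 0.103 without 0.5 nM replicate 2 and 0.0509, 0.0986 and 0.056 without 5 µM replicates 1, 2 and 3.

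The other LXR targets did not follow ABCG1. Of 17 measured LXR targets 1 was called higher and 0 lower at 5 µM against untreated in the fit without the filter. That fit called 0.183% of all probe sets. Differences were positive for 8 of the 17 and negative for 9, with a median of -0.0023 against -0.02 over all probe sets. ABCA1, the exporter to lipid-poor apolipoprotein, had 5.38, 5.35 and 5.32 log2 at 5 µM, against 5.20, 5.33 and 5.33 in untreated cells, a difference of 0.06 ± 0.08 (SE, adjusted p = 0.886). Of the 11 above the filter 0 passed and the median was -0.14, against -0.02 over all probe sets above it. MYLIP and SREBF1 were the 2 with a positive difference, and 9 were lower, among them APOE at -0.14 and the lipogenic genes FASN and SCD, which are SREBP-1 targets too. ABCG1 and ABCG4, close relatives among sterol exporters, thus had differences of 1.13 and -0.19 at 5 µM against untreated; that contrast between the 2 genes was not tested.

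**Figure D3:**
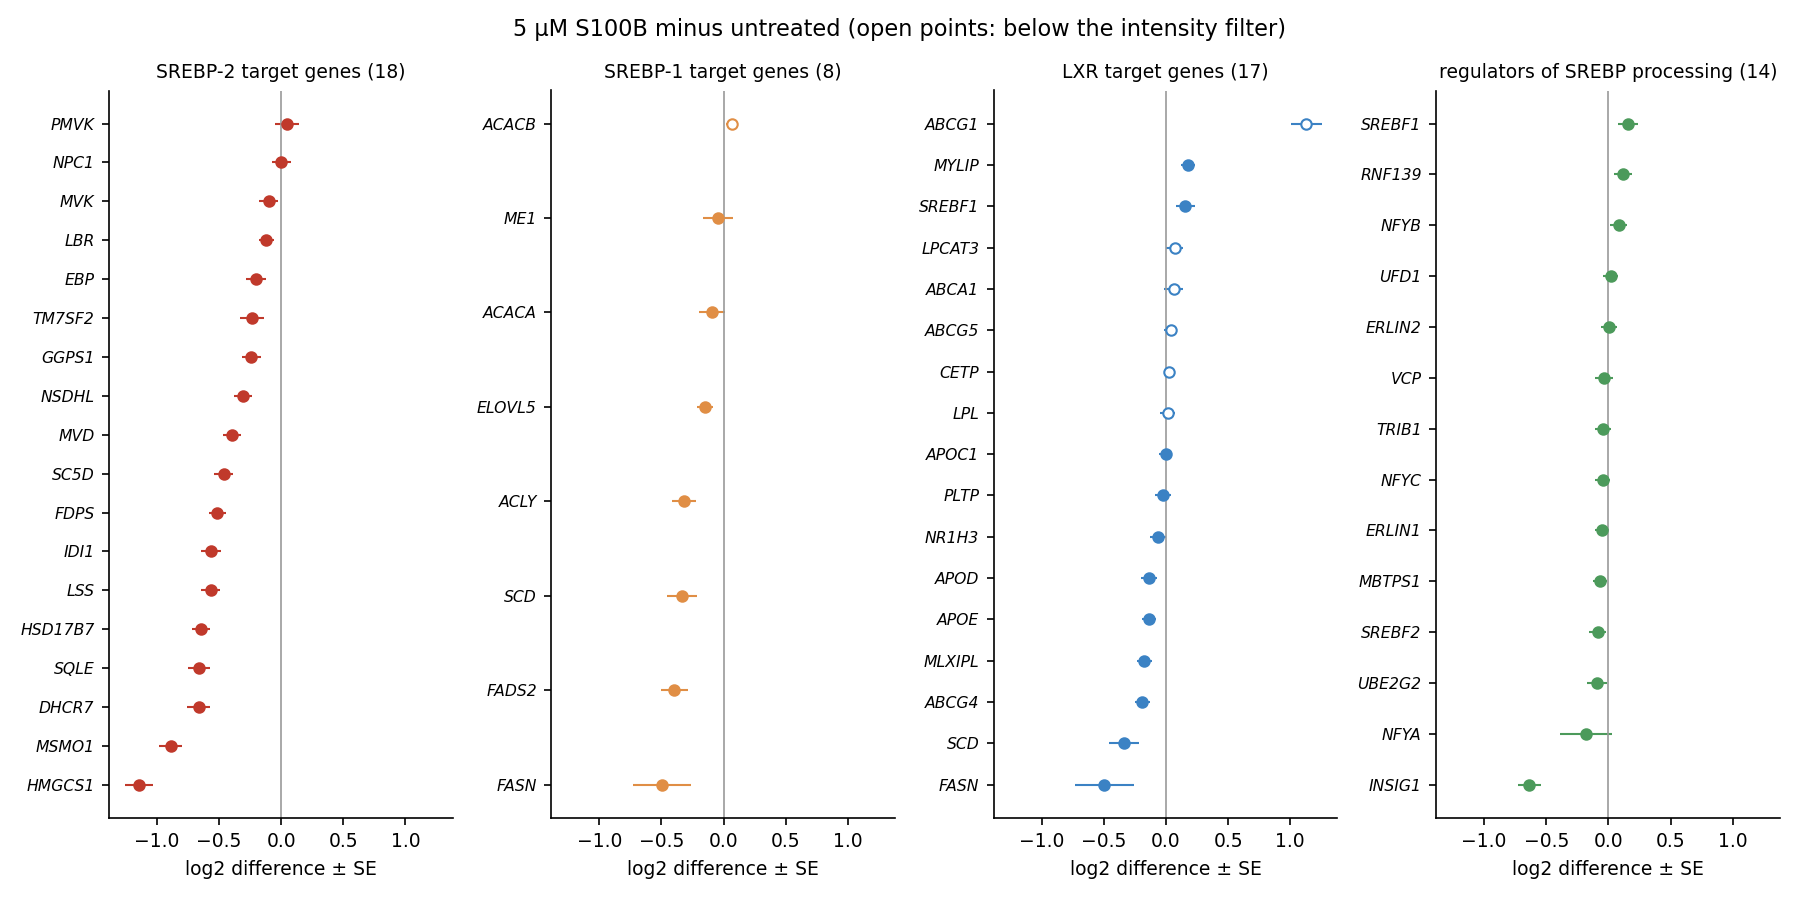
Difference at 5 µM against untreated (log2, horizontal; bars are the SE of limma's fit) for each measured gene of 4 lists, with open points for genes below the intensity filter, fitted without it. HMGCS1 and MSMO1 are lowest among SREBP-2 targets, ABCG1 stands highest among LXR targets, and INSIG1 lowest among the regulators.

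The list of 14 measured regulators of SREBP processing holds INSIG1, SREBF1 and SREBF2, which were chosen with these values known. Of the other 11 regulators 0 passed at 5 µM against untreated or against 0.5 nM, with medians of -0.05 and -0.04. MBTPS1, the protease that makes the first cut in SREBP, differed by -0.07 ± 0.06 (SE), and RNF139, a ubiquitin ligase of the same membrane, by 0.12 ± 0.08. SCAP and INSIG2 were not analysed here. Of 5 measured genes of LXR and its partners above the filter 0 passed at 5 µM against untreated, with a median of -0.05. NR1H3, which encodes LXR alpha, differed by -0.06 ± 0.06 (adjusted p = 0.906) and its partner RXRA by -0.06 ± 0.06 (adjusted p = 0.91).

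**Figure D4:**
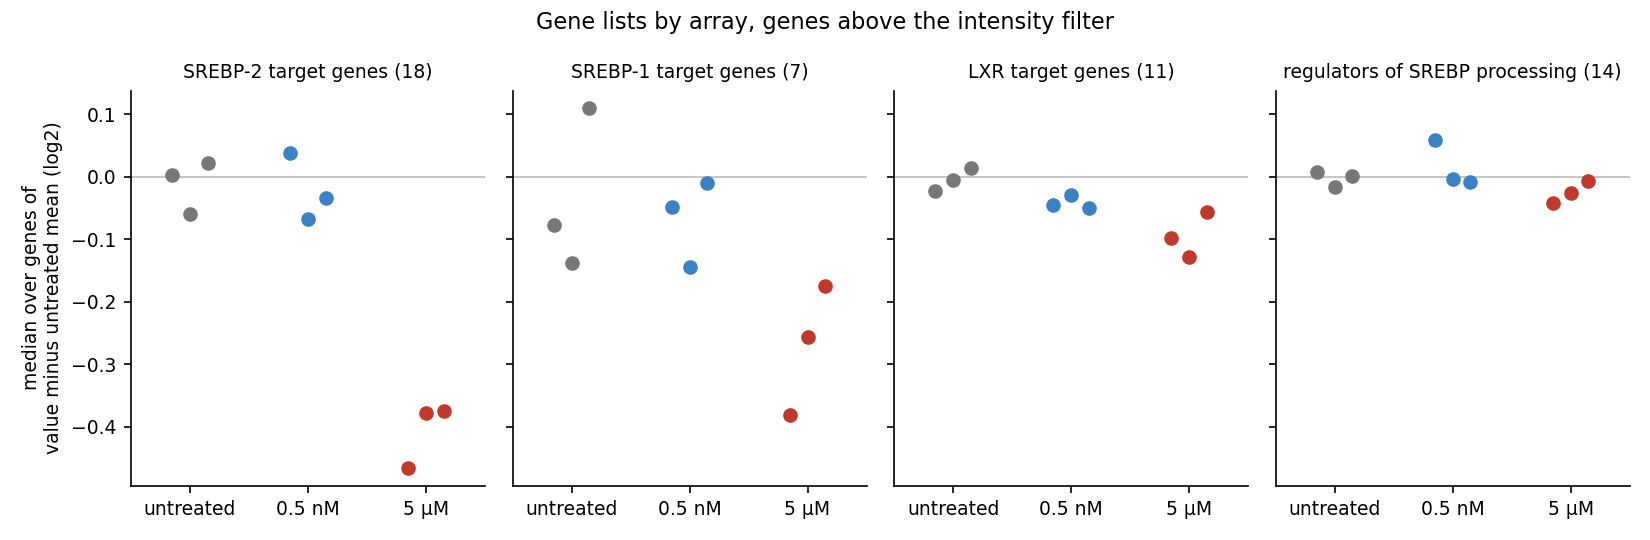
Median over the genes of each list of the log2 value minus the gene's untreated mean, 1 point per array by S100B dose, for genes above the intensity filter. The SREBP-2 targets lay at -0.47 to -0.38 on the 5 µM arrays, and the regulators at -0.04 to -0.0062.

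Genes of lipoprotein receptors, MYLIP substrates among them, and of oxysterol handling gave no call in any of the 3 comparisons. MYLIP acts on receptor protein, which these RNA values do not measure. VLDLR and LRP8, receptors that MYLIP also marks for degradation, lay below the filter and differed at 5 µM against untreated by 0.04 ± 0.05 and -0.04 ± 0.06 (adjusted p = 0.907 and 0.926), and the LDL receptor gene was not analysed here. Of 4 genes of the receptor list above the filter 0 passed, with SCARB1 at -0.12 and LRPAP1 at -0.06. Of 7 genes of oxysterol formation and sterol transport above the filter 0 passed at 5 µM against untreated, where the median was -0.0074. LIPA, the lysosomal lipase that frees cholesterol, differed by -0.22 ± 0.10 (adjusted p = 0.74) and NPC2, which carries it out of lysosomes, by -0.13 ± 0.07 (adjusted p = 0.763). CH25H and CYP46A1, which make oxysterols, lay below the filter.

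Arrays correlated at 0.993 to 0.997 within and between groups across probe sets. The 18 spike-in controls averaged 8.71 log2 on untreated replicate 1 and 9.04 to 9.45 elsewhere, and without it the INSIG1 difference at 5 µM against untreated was -0.66. Of 12 measured noradrenergic neuroblastoma markers 11 lay above the filter, DBH and MYCN among them, while TH, the first enzyme of catecholamine synthesis, lay below it. Their mean level was 9.95 to 10.20 log2 on untreated arrays, 10.14 to 10.19 at 0.5 nM and 10.12 to 10.28 at 5 µM, and 0 passed in any comparison. For other cell types, 2 of 8 measured mesenchymal markers (VIM and COL1A2), 2 of 5 glial ones (ALDH1L1 and MBP), 3 of 5 of leukocytes (CD74, CD3E and CD79A) and 3 of 6 of epithelium (KRT8, KRT18 and ELF3) lay above the filter, and 0 passed in any comparison. VIM averaged 10.84 log2 at 5 µM and 10.85 in untreated cells, and CD3E, at 7.29 and 7.31, was the next brightest. CD74 averaged 6.34 log2 at 5 µM, 6.40 at 0.5 nM and 6.66 in untreated cells. That was 80.22% and 83.83% of untreated, and at both doses its arrays lay below all untreated ones. PTPRC, GFAP and COL1A1 were among those below the filter. The epithelial mean level was 6.46 to 6.62 log2 on untreated arrays, 6.46 to 6.48 at 0.5 nM and 6.40 to 6.42 at 5 µM, so the 5 µM arrays lay below the others. ELF3, a transcription factor of epithelia, differed by -0.24 ± 0.05 (SE, adjusted p = 0.208) at 5 µM against untreated. Their part in the results above was not tested.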

How the data were processed

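Each deposited value is a log2 signal of 1 probe set on 1 array, made by the authors with GCRMA, per the submitters' processing notes, which give no version or setting. GCRMA corrects background, normalises between arrays and summarises probes. Fold changes of dim probe sets such as ABCG1 depend on that correction and may be understated or overstated, which was not tested. Total RNA (5 µg) was labelled with biotin, per the labels' protocols. Of 8793 probe sets, 47 controls were removed, then the dimmest 2915 by mean over 9 arrays (at or below 5.95), leaving 5831. Symbols came from the platform annotation, updated by Entrez identifier: 7840 probe sets had 1 symbol, 388 several and 518 none. A gene was represented by its brightest probe set. Some values are identical on different arrays, such as MYLIP on untreated replicate 3 and 0.5 nM replicate 2 (6.76011 log2). GATA2 had 10.0827 log2 on all 3 arrays at 5 µM, an SD of 0. Whether such ties make SDs too small was not tested.

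Groups were compared with limma 3.58.1 in R 4.3.3 (lmFit, eBayes, no covariate, all 9 arrays), Benjamini-Hochberg adjusted over all probe sets tested; genes below the filter were taken from the same fit without it. With 3 arrays a group the smallest exact permutation p is 0.1, and the number of arrays limits precision. The fit was tested on simulated data. The genes, the 7 pathway lists (123 genes, 77 measured and 61 above the filter) and the tests were chosen with earlier results of these data known. The named genes are the 5 members, a set of receptors, exporters and regulators, every list gene past the threshold (at most 10 a list) or else the 2 with the smallest p, and the genes most like each member by Pearson's r; others named, such as PMVK, NPC1, MBTPS1, RNF139, FASN, SCD and APOE, were chosen after their values were seen. Same-numbered arrays correlated in their deviations from group means at -0.00032 to 0.329, above 0.1 in 4 of 9 pairs. Arrays of different numbers did so at -0.367 to 0.348, above 0.1 in 4 of 18 pairs. Numbers were not taken as pairs in the main fit, and a fit with the number as a block is given below. Arrays numbered 3 correlated with each other at 0.298 to 0.329 and with arrays of other numbers at -0.367 to -0.0624. Whether they shared a batch was not tested. Promoter windows came from RefSeq (GRCh38.p14); all 5 genes matched, ABCG4 with 2 starts.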

Additional observations from a re-analysis of the deposited data

How the results depend on the processing

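The differences of the 5 genes at 5 µM against untreated and against 0.5 nM kept their direction under all alternatives run (17 each, 16 for ABCG4, which the stricter filter removed), with INSIG1 at -0.70 to -0.56 and -0.67 to -0.52, MYLIP at 0.15 to 0.23 and 0.18 to 0.26 and ABCG4 at -0.24 to -0.13 and -0.22 to -0.11. That was largely fixed in advance. Other filters, tests and the block leave a difference as it is. Where groups do not overlap, as for INSIG1, MYLIP and ABCG4 here, leaving out 1 array cannot reverse it. INSIG1 passed in 11 of 17 alternatives against untreated and in 8 of 17 against 0.5 nM. In both comparisons SREBF1, SREBF2 and MYLIP passed in 0 of 17 and ABCG4 in 0 of 16. The 5 genes were chosen with these contrasts known, so the counts are a description of refits of the same arrays. At 0.5 nM against untreated 0 probe sets were called in all 17. With only the groups compared in the fit, 7 probe sets and 3 SREBP-2 targets were called at 5 µM against untreated, and 4 and 3 against 0.5 nM; with an unmoderated test these were 1 and 0, and 1 and 0. Leaving out 1 array gave 4 to 17 probe sets and 3 to 9 targets against untreated, and 3 to 14 and 2 to 9 against 0.5 nM; these fits hold fewer samples. With the replicate number as a block, 15 probe sets were called in each 5 µM comparison and 9 and 8 targets, and 4 of 9 arrays were closest to one of their own number. ABCG1 is absent from any fit with the intensity filter; in the fit without it, its adjusted p against untreated ran from 0.00141 with a mean-variance trend to 0.237 with an unmoderated test. Of 1098 differences of the other named genes under alternatives, 107 lost a call and 1 gained one (MVD). Only differences called before the alternatives could lose a call, and these were 370 over all named genes, INSIG1 included. Over all named genes, under the same limits, 0 of 370 called differences changed sign, and 55 of 980 not called did. Signal over background per probe set was not assessed.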
